A study of Sus scrofa with 14 samples.

Results

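The secretory genes described here are ACP5, UPTI, CST6, GM2A, TCN1, FGF7 and LIF, 7 of the 6765 genes that the porcine array measured with at least 1 probe set carrying a single gene symbol. They were chosen by name, with earlier results of these data known, as genes whose proteins are secreted into the uterine lumen. Every probe set with one of them as its only symbol was used. This gave 11 probe sets of 23999 tested. ACP5, CST6 and LIF had 1 probe set each, and UPTI, GM2A, TCN1 and FGF7 had a pair each. The brighter of a pair is meant below unless the dimmer is named.

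The pig conceptus is fed by histotroph, the mixture of proteins, ions and nutrients that the endometrial glands and surface epithelium release into the lumen. Progesterone drives much of this secretion, and areolae of the placenta take it up over the mouths of the glands. ACP5, the purple acid phosphatase known as uteroferrin, carries iron to the conceptus, and UPTI is a Kunitz-type inhibitor of plasmin and trypsin. CST6 is a cystatin that blocks cysteine proteases such as legumain, GM2A presents ganglioside GM2 for degradation in the lysosome, and TCN1 is a vitamin B12 carrier of secretions. FGF7 and LIF are signals that act on epithelium and, for LIF, through receptors that use the IL6ST chain.

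The arrays come from frozen uterus of 14 slaughtered sows on days 30 to 32 of the fifth pregnancy. All were Iberian x Meishan F2, a second cross generation of a Spanish and a Chinese pig breed. The labels class 5 sows as of high and 9 as of low prolificacy, name no agent or engineered allele for either group, and give no age. Each sow is 1 array and is called a biological replicate. The labels do not say what defined the classes, nor which layer of the wall was sampled. The study asked which genes differ in the uterus between the classes. Levels are log2 values, differences are high minus low, and a gene is said to have risen or fallen where limma's adjusted p was under 0.05.

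The samples differed in the levels of tissue markers. Of 15 uterine epithelium markers, 7 rose and 0 fell, and of 17 smooth muscle markers 16 fell and 0 rose. The epithelium list mean, the average of its genes' log2 levels after each is centred, ran from 0.68 to 1.55 in high and from -2.52 to 0.24 in low prolificacy. The smooth muscle mean ran from -3.32 to -0.08 in high and from 0.73 to 1.93 in low, so the groups did not overlap in either mean. Of 14 trophoblast and fetal membrane markers 0 rose and 0 fell, but their mean was 3.02 in high 4 against -0.92 to 0.73 in the other arrays. In bulk tissue, fewer cells of a type and less RNA per cell cannot be told apart, and each result below stands beside these means.

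Of the 7 secretory genes 3 rose in high prolificacy, UPTI, CST6 and GM2A, and in all 3 every high array lay above every low array. They were called in 4 of 11 probe sets, or 36.4%. Over all probe sets tested 7.85% were called, 3.5% higher and 4.35% lower, and the groups were apart in this direction in 0.904%. TCN1 differed by more than any of them but missed the threshold, with an adjusted p of 0.052 in limma. ACP5, LIF and FGF7 were not called. The median difference over the 7 genes was 1.69, beside 0.073 over all genes. Because the 7 genes were chosen with earlier results of these data known, these shares and medians are a description. They do not test whether secretory genes differ more than others.

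**Figure D1:**
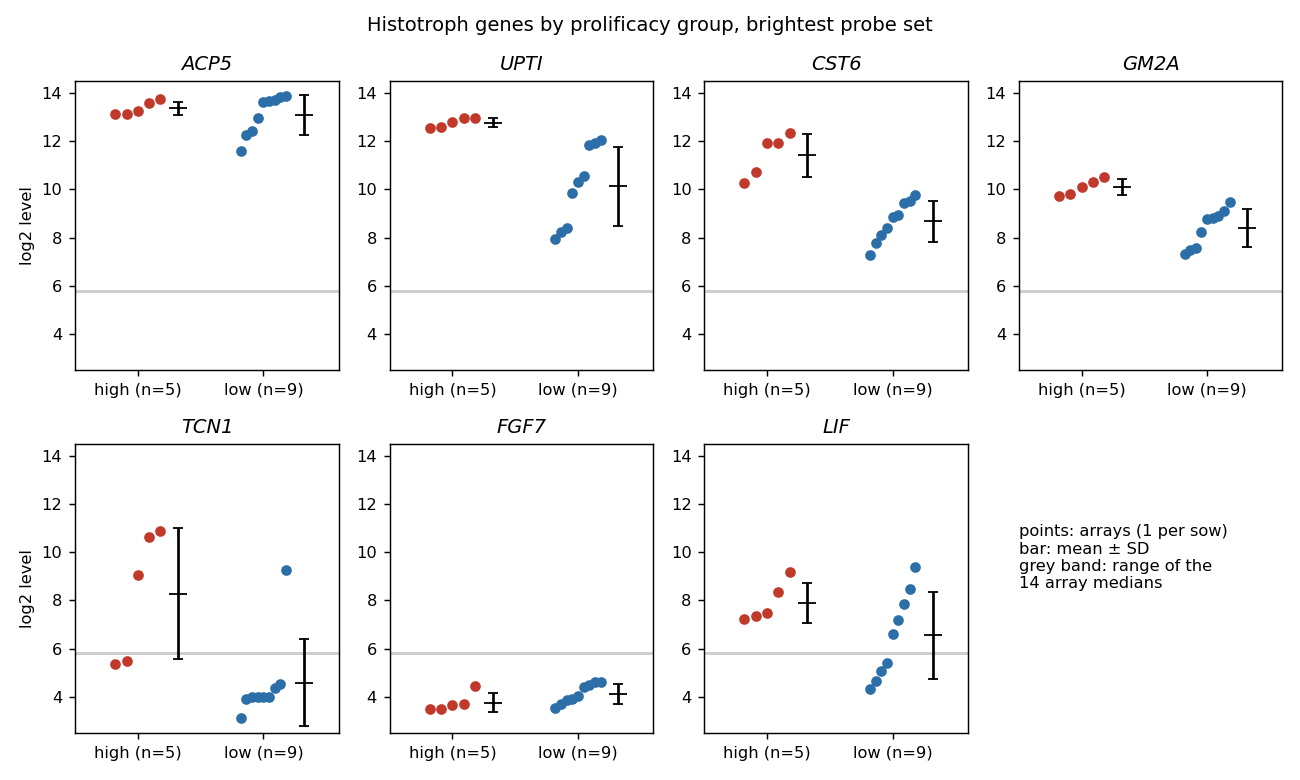
Log2 level of each secretory gene (y axis, brightest probe set) in the high (red, n = 5) and low prolificacy arrays (blue, n = 9), with mean ± SD as black bars and the range of the array medians, 5.72 to 5.84, as a grey band. UPTI, CST6 and GM2A are fully separated between the groups, TCN1 is near 10 in some arrays and near 4 in most, and FGF7 lies under the band in every array.

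UPTI, the plasmin and trypsin inhibitor, was at 12.98, 12.54, 12.59, 12.95 and 12.79 in high 1 to high 5. In low prolificacy it ran from 7.95 in low 3 over a median of 10.33 to 12.04 in low 4. The high arrays sat within 0.44 of each other, while the low arrays spread over more than 4 log2 units, with 3 of them between 11.85 and 12.04. The difference was 2.64 ± 0.68 (SE, limma adjusted p = 0.028), or 6.25-fold. This call was lost without high 2, high 3, high 4, high 5 or low 6, at limma adjusted p between 0.0515 and 0.0693. It was also lost with array weights (0.068) and without both low 7 and low 9 (0.070). The dimmer UPTI probe set, built on the same transcript record, was at 5.25 ± 0.51 (SD, n = 5) and 5.14 ± 0.27 (SD, n = 9), under the array median in 13 of 14 arrays, and did not follow the brighter one.

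CST6, the secreted cystatin, had levels of 10.71, 11.91, 11.91, 10.25 and 12.33 in high 1 to high 5. In low prolificacy its lowest level was 7.28 in low 7, its median 8.87 and its highest 9.78 in low 1. High 1 and high 4 were the lowest of their group and the nearest to the low arrays. The difference was 2.73 ± 0.44 (SE, limma adjusted p = 0.0027), and the call held in all 14 fits that left out 1 array.

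GM2A, the ganglioside activator, was at 9.80, 10.31, 10.52, 9.74 and 10.12 in high 1 to high 5. The low arrays ran from 7.31 in low 7 over a median of 8.79 to 9.49 in low 5. High 1 and high 4 were again the lowest of the high group. The difference was 1.69 ± 0.35 (SE, limma adjusted p = 0.0089), a 3.22-fold change. The second GM2A probe set rose by a like amount, 1.61 ± 0.38 (SE, limma adjusted p = 0.019), although its groups overlapped and its call was lost without high 2 or high 3 (limma adjusted p 0.058 and 0.066).

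TCN1, the vitamin B12 carrier, was either bright or dim. It stood at 10.89 in high 2, 10.62 in high 3, 9.05 in high 5 and 9.27 in low 8. High 1 and high 4 were at 5.34 and 5.48, and the other 8 low arrays lay between 3.12 in low 7 and 4.55 in low 9. No array fell between 5.48 and 9.05, and 10 of 14 were under their array median. Its SD over the 14 arrays, 2.76, was larger than that of 99.9% of probe sets. TCN1 was taken as an on-off gene, beside ACP5 as a constant one, with earlier results of these data known. The percentile is therefore a description only. With no detection calls, whether TCN1 stood above background in the dim arrays is not known, so no fold between bright and dim arrays is given.

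The bright arrays of TCN1 did not follow the prolificacy classes cleanly. The mean of the high group was 8.28 ± 2.71 (SD, n = 5), and that of the low group was 4.58 ± 1.80 (SD, n = 9). The difference was 3.70, with a 95% interval from 1.37 to 6.02 (limma adjusted p = 0.052). Without low 8 it was 4.28 (limma adjusted p = 0.0097), without high 1 it was 4.43 (0.019) and without high 4 it was 4.39 (0.027), all past the threshold. The dim TCN1 probe set, under the array median in all 14 arrays, had the same 4 arrays on top, at 4.80 in high 2, 4.64 in high 5, 4.33 in high 3 and 3.61 in low 8, with no other array above 3.25.

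ACP5, uteroferrin, was bright everywhere. It was at 13.75, 13.15, 13.12, 13.58 and 13.27 in high 1 to high 5, and in low prolificacy it ran from 11.60 in low 9 over a median of 13.64 to 13.86 in low 1. The groups overlapped, and most low arrays were as bright as the brightest high arrays. Low 9, low 7 (12.26) and low 8 (12.41) were the 3 lowest. The difference was 0.27, with a 95% interval from -0.50 to 1.04 (limma adjusted p = 0.75).

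Calling ACP5 constant holds at most for the high group, where its SD was 0.28, and not for all arrays. Even there 37.65% of probe sets had a smaller SD, and so did UPTI, at 0.20. Over the 14 arrays the SD of ACP5 was 0.69, larger than that of 82.7% of probe sets, and the lowest and highest arrays differed by 4.78-fold. ACP5 also lay near the top of the measured scale. It ranked between the 3rd and the 205th brightest of 23999 probe sets, and in 7 arrays it was within 0.5 of the brightest probe set. How far the top of the scale compressed its differences was not tested.

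**Figure D2:**
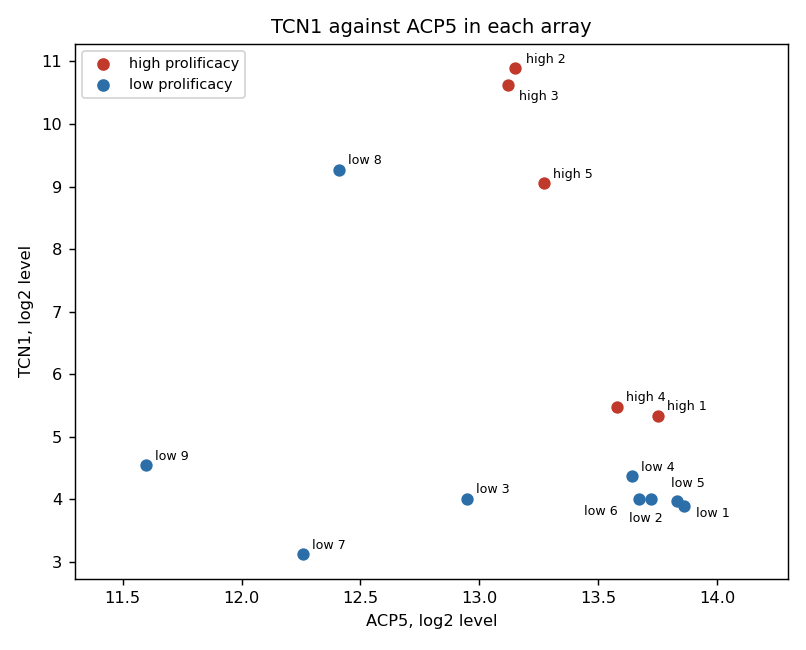
Log2 level of TCN1 (y axis) against that of ACP5 (x axis), 1 point per array, red for high and blue for low prolificacy. The 4 arrays with TCN1 above 9 have ACP5 between 12.41 and 13.27, inside the range of the other arrays, 11.60 to 13.86.

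Array by array, the 7 with the most ACP5 (low 1, 2, 4, 5 and 6 beside high 1 and high 4) were dim in TCN1, which lay between 3.89 and 5.48. Low 8 was the third highest array in TCN1 and the third lowest in ACP5. Low 3, low 7 and low 9 had the other low ACP5 levels, at 12.95, 12.26 and 11.60, and were dim in TCN1 too. A relation between ACP5 and TCN1 was not shown: it did not pass over the 14 arrays (permutation p = 0.65 for Pearson's r, adjusted 0.71) or in the 9 low arrays (exact permutation p = 0.48, adjusted 0.63). Without low 9 and low 7 the correlation was more strongly negative in both sets of arrays, and no p was computed for it. No coefficient is given for TCN1 with the other secretory genes. TCN1 fell into separate clusters of arrays, and the cluster of 4 is too small for a coefficient.

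LIF, the cytokine, was at 8.34, 7.21, 7.49, 9.17 and 7.34 in high 1 to high 5. In low prolificacy it ran from 4.31 in low 9 over a median of 6.59 to 9.38 in low 1. The highest low array exceeded the highest high array, and 4 low arrays (low 3, low 7, low 8 and low 9) fell under their array median. The difference was 1.36, with a 95% interval from -0.31 to 3.04 (limma adjusted p = 0.36). An interval this wide does not show that the groups were alike.

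FGF7 was dim in every array. Its brighter probe set was at 4.46, 3.66, 3.48, 3.50 and 3.69 in high 1 to high 5 and ran from 3.52 to 4.63 in low prolificacy, with a median of 4.03. Both FGF7 probe sets were under the array median in all 14 arrays. With no detection calls, whether they stood above background is not known, and the difference of -0.37 (95% interval from -0.84 to 0.095, limma adjusted p = 0.37) is limited by that.

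**Figure D3:**
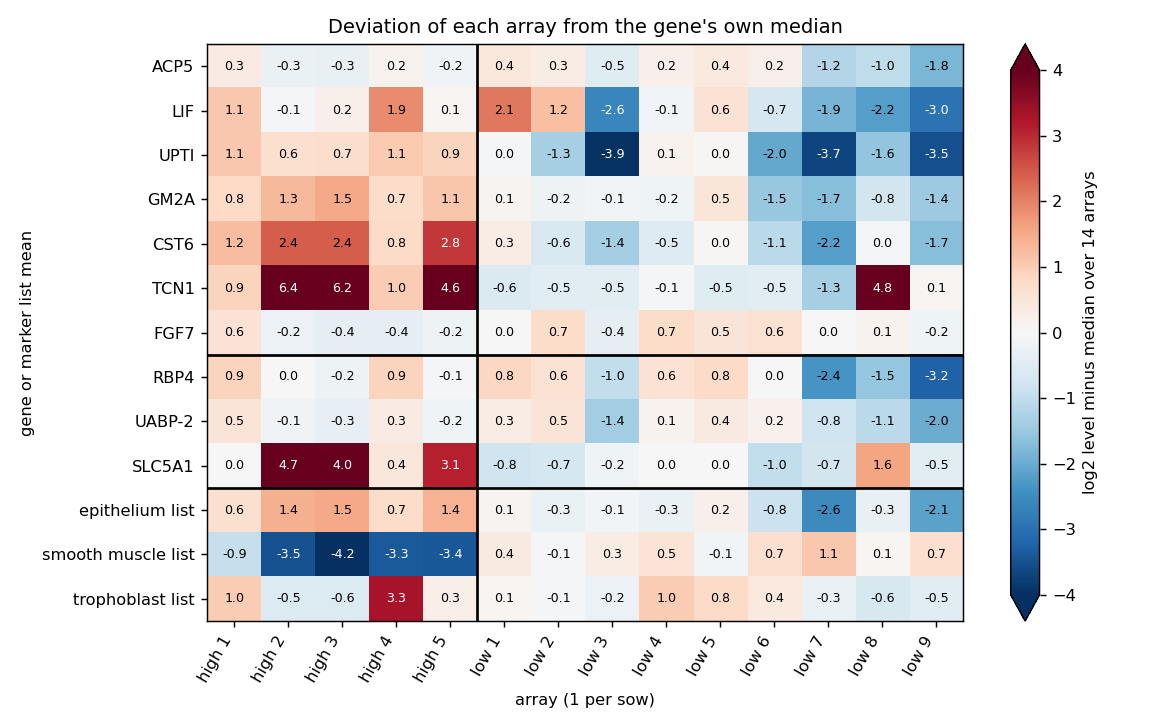
Log2 level of each gene, or mean of each marker list, minus its median over the 14 arrays, by array (columns, high prolificacy left of the line). The colours end at 4 and -4, and the printed numbers give the values. High 2, high 3, high 5 and low 8 stand out in TCN1 and SLC5A1, and low 3, low 7, low 8 and low 9 are the 4 lowest arrays in ACP5, LIF, RBP4 and UABP-2.

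Relations between the secretory genes were computed for all 21 pairs, over the 14 arrays and again over the 9 low arrays alone. For UPTI, CST6 and GM2A only the low arrays are used, because the groups do not overlap. ACP5 and LIF went together over the 14 arrays (Pearson's r = 0.84, permutation p = 0.00016, adjusted 0.0015; Spearman's rho = 0.789, permutation p = 0.0011, adjusted 0.0060), and r was 0.772 without low 9 and low 7. Within the low arrays r was 0.857 (exact permutation p = 0.0043, adjusted 0.045) and rho was 0.90 (exact permutation p = 0.0020, adjusted 0.043). It stayed at 0.847 without low 9 and low 7. UPTI and CST6 gave r = 0.87 in the low arrays (exact permutation p = 0.0032, adjusted 0.045), but their rho of 0.80 missed the threshold (exact permutation p = 0.014, adjusted 0.13). No other pair passed in the low arrays after adjustment over the 21.

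Within the high group the order of the arrays split the genes. High 1 and high 4 were the highest of the 5 in ACP5, LIF and UPTI and the lowest in CST6 and GM2A and TCN1. The same 2 arrays had the lowest epithelium means of the group, 0.68 and 0.76, and the highest trophoblast means, 0.73 and 3.02. Their stromal fibroblast means, 0.33 and 0.27, lay above those of the other high arrays, -1.16 to -0.87. The smooth muscle mean was -0.08 in high 1 and -2.51 in high 4, and -3.32 to -2.55 in the other high arrays. With 5 arrays this is a description only, and the part of the other tissues in it was not tested.

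Each gene was set against the epithelium list mean, in 7 relations per set of arrays. In the 9 low arrays GM2A followed it closely (r = 0.873, exact permutation p = 0.00025, adjusted 0.0017; rho = 0.967, exact permutation p = 0.00017, adjusted 0.0012). Its r was 0.963 without low 7 and low 9, the 2 arrays with the lowest epithelium means. CST6 had r = 0.85 (exact permutation p = 0.0019, adjusted 0.0065) and rho = 0.75 (exact permutation p = 0.026, adjusted 0.060), and r was 0.559 without those arrays. For ACP5 r was 0.762 (exact permutation p = 0.019, adjusted 0.045) and rho 0.80 (exact permutation p = 0.014, adjusted 0.048), but r was 0.143 without low 7 and low 9, so this relation rests on them. UPTI (r = 0.679, exact permutation p = 0.046, adjusted 0.081; rho = 0.517, exact permutation p = 0.16, adjusted 0.23), LIF and FGF7 did not pass. Low 3 had the lowest UPTI of all arrays and an epithelium mean of -0.06, below only low 1 and low 5 in the low group.

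With the epithelium mean as a covariate, limma called 0 secretory probe sets (1 had an unadjusted p under 0.05) and 2 of all 23999. The differences were then 1.22 ± 0.41 for CST6, 0.83 ± 0.83 for UPTI and 0.41 ± 0.28 for GM2A (SE). That mean explained 55.4% of the group, and the smooth muscle mean, with which limma called 0 of all 23999 (0 secretory probe sets at an unadjusted p under 0.05), explained 83.8%. Since the groups overlapped in neither mean, neither epithelium nor smooth muscle content can be told apart from prolificacy class here, and the adjusted differences carry that limit.

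**Figure D4:**
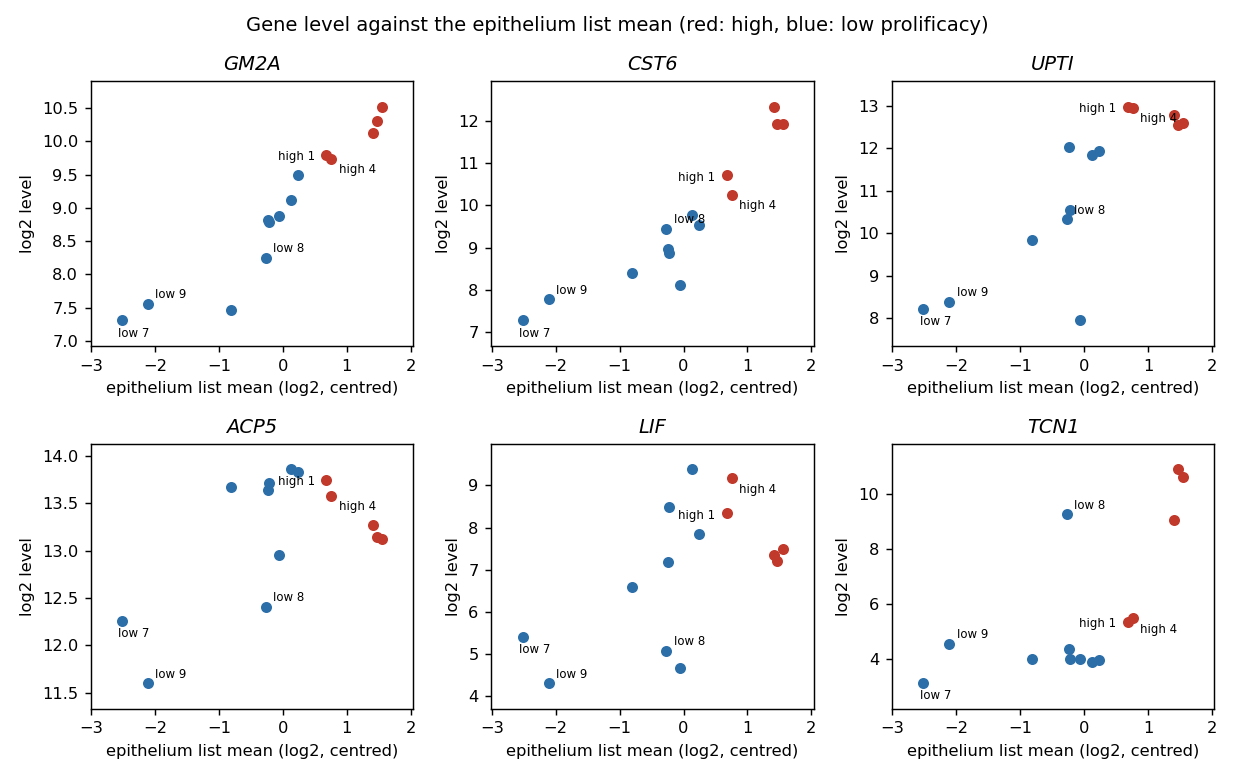
Log2 level of each gene (y axis) against the epithelium list mean (x axis, centred log2), 1 point per array, red for high and blue for low prolificacy, with 5 arrays named. GM2A rises along the axis in both groups. ACP5 is lower in the 3 high arrays with the highest epithelium means than in high 1 and high 4. Low 8 has TCN1 at 9.27 at an epithelium mean of -0.27.

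The genes most like each secretory gene were the 3 with the highest Pearson correlation among 6758 other genes. The ranking is a description, over arrays whose tissue marker means differ between the groups. For ACP5 over 14 arrays they were RBP4, the retinol carrier of histotroph, at 0.975, the protease inhibitor TIMP2 at 0.945 and the serine synthesis enzyme PSPH at 0.941. RBP4 ran from 9.22 in low 9 to 13.34 in high 1, and its r with ACP5 was 0.988 in the low arrays alone, where PSPH (0.976) and the nucleoside transporter SLC29A1 (0.965) came next. Another bright TIMP2 probe set had an r of 0.31 with the first, so the place of TIMP2 rests on 1 probe set.

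LIF was most like the sulfotransferase SULT2A1 (0.932), TIMP2 (0.92) and UABP-2 (0.907), the uteroferrin-associated basic protein, a uterine serpin that binds ACP5. SULT2A1 was at 12.83 and 12.71 in high 1 and high 4 against 9.83 to 10.86 in the other high arrays, and as low as 6.77 in low 9. UABP-2 ran from 11.41 in low 9 to 13.92 in low 2. The lists of ACP5 and LIF therefore share TIMP2.

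TCN1 over 14 arrays was most like LOC100526084 (0.971), the sodium-glucose transporter SLC5A1 (0.96) and the sodium pump subunit ATP1B1 (0.942). SLC5A1 was at 8.78, 8.06 and 7.13 in high 2, high 3 and high 5, at 5.61 in low 8 and at or under 4.48 in all others. ATP1B1 was at 11.93, 12.06 and 11.32 in the same 3 high arrays and at 10.3 in low 8, while high 1, dim in TCN1, was close to low 8 at 10 and no other array exceeded 8.90. In the low arrays alone the likest genes were ALS2CL (0.962), PAN2 (0.961) and LOC100526084 (0.941), where low 8 is the only array bright in TCN1. These genes were picked for their likeness to TCN1 over the same arrays, so that they share its bright arrays follows from the choice, and the coefficients, which span its separate clusters, serve for the ranking only.

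UPTI was most like the calcium channel TRPV6 (0.972), the orphan receptor GPR160 (0.95) and the lysosomal galactosidase GLB1 (0.947). TRPV6 was between 10.6 and 11.26 in high prolificacy and between 6.04 and 10.85 in low, and lowest in low 3, as UPTI was. CST6 was most like the sulfatase ARSE (0.97), FXYD3 (0.967), a regulator of the sodium pump, and the tetraspanin CD9 (0.963). GM2A was most like SPINT1 (0.974), a protease inhibitor of epithelium that also stands in the epithelium list, the histone variant H2AFY (0.97) and the chemokine CXCL16 (0.965). Other H2AFY probe sets, at 6.77 and 4.09 over the arrays, had an r of 0.15 and 0.21 with the one used. The place of H2AFY therefore rests on 1 probe set. The coefficients of UPTI, CST6 and GM2A span groups that do not overlap, so they serve for the ranking only. FGF7 had weaker matches, RUNX1T1 at 0.813, MAPK9 at 0.777 and CYP3A22 at 0.755.

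Other genes of gland secretion and of each gene's own pathway were counted in fixed lists, 1 brightest probe set per gene, beside 5.34% of all genes higher and 5.42% lower. The lists were written with earlier results of these data known. None of the genes named below as risen or fallen was called with the epithelium or the smooth muscle mean as a covariate, or with the replicate block. Of 29 gland secretion genes, the 7 above included, 9 rose and 0 fell, with a median difference of 0.90. After CST6 the smallest p were those of FXYD3 and WFDC2. FXYD3, a regulator of the sodium pump and not itself a secreted protein, rose by 3.22 ± 0.61 (SE, limma adjusted p = 0.0053). WFDC2 is a whey-acidic-protein type protein of epithelial secretions. WFDC2 went from 9.11 ± 1.40 (SD, n = 9) in low to 12.17 ± 0.29 (SD, n = 5) in high prolificacy (limma adjusted p = 0.0059).

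Of 16 genes of iron handling, beside ACP5, 1 rose and 0 fell (median 0.25). It was STEAP4, a metalloreductase, which rose by 1.58 ± 0.44 (SE, limma adjusted p = 0.039) and lost the call in 9 of the 14 fits without 1 array (highest adjusted p 0.12, without high 2), as well as with cyclic loess (0.052). Of 20 genes of plasmin and serine protease control, beside UPTI, 3 rose and 1 fell (median 0.49). SERPINB2, an inhibitor of plasminogen activators, rose by 3.30 ± 0.59, SPINT1 by 2.08 ± 0.37 and the membrane serine protease PRSS8 by 2.12 ± 0.45 (SE). TFPI2, another Kunitz-type inhibitor, fell by 2.41 on the log2 scale, from 9.70 ± 0.35 (SD, n = 9) in low to 7.29 ± 1.45 (SD, n = 5) in high prolificacy.

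Of 13 cysteine proteases and cystatins, the field of CST6, 0 rose and 1 fell (median 0.072). The one that fell was CTSK, cathepsin K, with a log2 difference of -0.81 (limma adjusted p = 0.037), a call lost in 10 of 14 fits without 1 array (highest adjusted p 0.085, without high 5). Legumain, LGMN, named as a target of CST6, was at 9.46 ± 0.71 (SD, n = 5) and 9.63 ± 0.32 (SD, n = 9), a difference of -0.17 (limma adjusted p = 0.78); it was picked out for that role after its value was seen. With 5.34% of all genes higher, the lack of a called rise among 13 genes is not a result about CST6.

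Of 16 genes of lysosomal glycolipid degradation, the pathway of GM2A, 3 rose and 0 fell (median 0.70). HEXA, a lysosomal enzyme subunit which works with GM2A on ganglioside GM2, went from 9.48 ± 0.34 (SD, n = 9) to 10.31 ± 0.12 (SD, n = 5). Its difference of 0.83 ± 0.16 (SE) had a limma adjusted p of 0.0065. GLB1, the beta-galactosidase, rose by 1.90 ± 0.48 (SE, limma adjusted p = 0.026), and GLA, the alpha-galactosidase, by 0.94 ± 0.27 (SE, limma adjusted p = 0.047). GLB1 lost the call without high 2, high 3 or high 4 (adjusted p at most 0.076) and GLA in 10 of 14 such fits (at most 0.13), as well as with cyclic loess (0.052) and array weights (0.16), while HEXA kept it in all 14.

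Of 9 genes of vitamin B12 handling, the field of TCN1, 1 rose and 0 fell (median 0.18). AMN, which anchors the receptor of the intrinsic factor complex, rose by 0.69 ± 0.15 (SE, limma adjusted p = 0.012), but it was dim, at 3.68 and 2.99, well under the array medians. TCN2, the carrier of blood plasma, was at 8.56 ± 0.22 (SD, n = 5) and 8.70 ± 0.47 (SD, n = 9), a difference of -0.14 (limma adjusted p = 0.79), and was singled out after its value was seen. Its SDs were below 0.5 in both groups, beside 2.71 and 1.80 for TCN1. The receptor CD320 was not analysed here.

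Of 8 genes around FGF7, 1 rose and 2 fell (median 0.028). FGFR2, whose epithelial form is the receptor of FGF7, was at 7.64 ± 0.59 (SD, n = 5) and 7.75 ± 0.23 (SD, n = 9), a difference of -0.11 (limma adjusted p = 0.83). FGF9 rose by 0.91 on the log2 scale, while FGFR1 and the transcription factor ETV5 fell by 1.44 and 1.79 (limma adjusted p of 0.031, 0.024 and 0.026). FGF9 lost the call without high 2, high 3, high 5, low 6 or low 7, FGFR1 without high 2 or high 3, and ETV5 without high 2, high 3 or high 4. Dimmer probe sets of FGFR1 (-1.08) and ETV5 (-0.82) were not called.

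Of 9 genes of LIF signalling, 0 rose and 2 fell (median 0.098). The kinase JAK1, which the LIF receptor uses, fell by 0.49 on the log2 scale, from 9.95 ± 0.18 (SD, n = 9) to 9.46 ± 0.19 (SD, n = 5) (limma adjusted p = 0.017), and JAK2 fell by 0.98 (limma adjusted p = 0.036). JAK2 lost the call without high 2, high 3, high 5, low 1, low 6 or low 9, and JAK1 kept it in all 14 such fits. Dimmer JAK1 and JAK2 probe sets, at 3.25 and 5.65 over the arrays, were not called. The receptor chains LIFR and IL6ST were not analysed here.

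Of 10 transcription factors and hormone receptors of the gland, 1 rose and 1 fell (median 0.11). ELF3, an epithelial ETS factor that is also in the epithelium list, rose by 2.47 ± 0.54 (SE, limma adjusted p = 0.012). PGR, through which progesterone acts, had a log2 difference of -0.84 (limma adjusted p = 0.047), a call lost in 9 of 14 fits without 1 array (highest adjusted p 0.12, without high 2), with median subtraction (0.0506) and with trend and robust settings (0.0509). FOXA2, the factor that marks uterine glands, was at 8.35 ± 0.59 (SD, n = 5) and 8.54 ± 1.37 (SD, n = 9), a difference of -0.19 (limma adjusted p = 0.91); it was named after its value was seen.

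**Figure D5:**
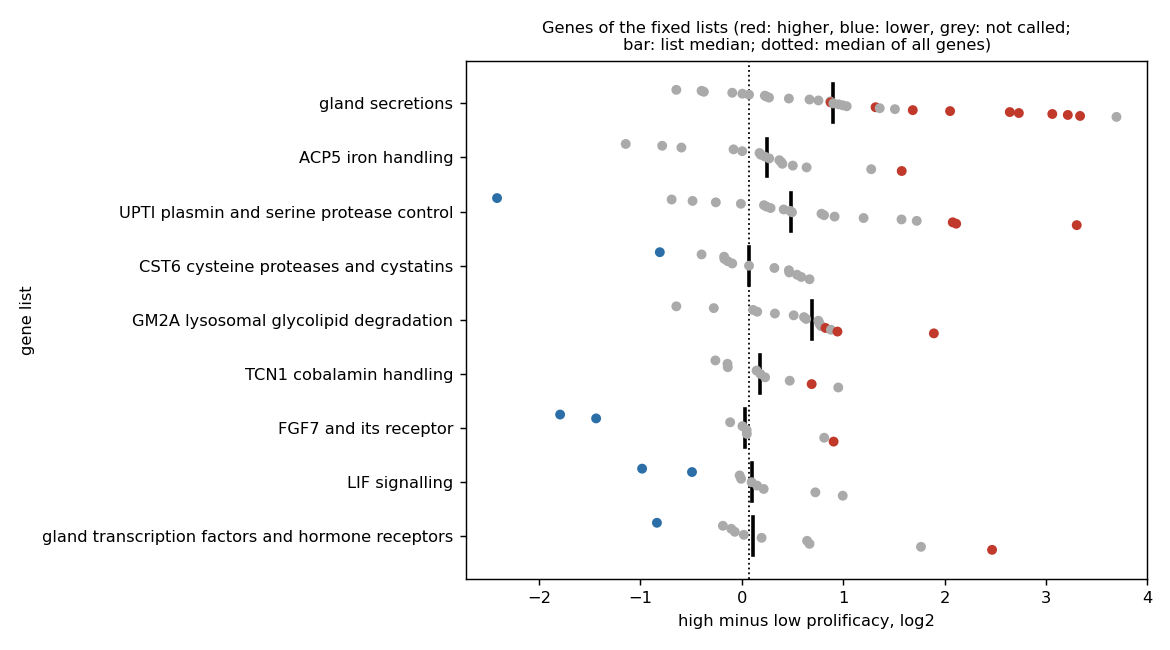
Difference between high and low prolificacy (x axis, log2) for the genes of each fixed list (y axis), red where limma called the gene higher, blue lower and grey not called, with black bars for list medians and a dotted line at 0.073, the median of all genes. The gland secretion and glycolipid lists have their medians at 0.90 and 0.70, while the medians of the cystatin, FGF7, LIF and transcription factor lists lie between 0.028 and 0.11.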

How the data were processed

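The authors deposited 1 table of log2 levels per probe set for 14 Affymetrix porcine arrays, made with RMA, which the submitters' processing notes name (settings not given in the sources used here). No detection calls were used. RMA equalises intensity distributions between arrays, which would remove a shift shared by most transcripts. The number of arrays limits the precision. No array pair held identical values. Of 24123 probe sets, 124 controls were left out. Symbols are those of the platform annotation and can be outdated (10069 probe sets with 1 symbol, 198 with several, 13732 with none); 6 of the 7 genes were found by gene number in the Sscrofa11.1 gene table, all with the same symbol, and CST6 keeps the annotation's name.

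High minus low was fitted with limma 3.58.1 in R 4.3.3 (lmFit, eBayes, two-sided, no covariate) and adjusted by Benjamini-Hochberg over 23999 probe sets. SE and intervals are limma's moderated ones. Correlations used 100000 permutations (14 arrays) or all 362880 orders (9 arrays), two-sided. Named were the 7 genes, up to 3 called genes per direction and list with the smallest p, FGFR2, HEXA and the 3 genes most like each of the 7. The rule also held LIFR, IL6ST and CD320, not analysed here, and a gene not reported here. LGMN, TCN2 and FOXA2 were added after their values were seen. Other settings were a filter, cyclic loess, median subtraction, array weights, trend, covariates, a replicate block, 1 probe set per gene and leaving out arrays. A simulation of the group comparison with 23999 probe sets, 200 of them changed, had a recovery rate of 12% at a log2 difference of 0.5. The rate was 64% at 1 and 90% at 2. It was not computed for the secretory genes. In low prolificacy their SDs were larger than those of 66.2% (FGF7) to 99.7% (TCN1 and LIF) of probe sets. The simulation also gave 136 calls in all, beside 1885 in the data, so the adjustment of its p differed. The simulated rates therefore need not hold for the secretory genes. The genes and lists were chosen with earlier results of these data known.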

Additional observations from a re-analysis of the deposited data

Results flagged for a closer look

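In a group of 4 to 10 arrays, an array whose distance to its neighbour is an unusually large share of the group's range was picked out, by Dixon's test; chance does so in about 1 in 20 groups. Of 22 groups (11 probe sets in both prolificacy classes), 4 had such an array. In low prolificacy TCN1 was at 9.27 in low 8 against 4.55 in the next array, and its dim probe set was at 3.61 in low 8 against 3.25. The brighter FGF7 probe set was at 4.46 in high 1 against 3.69 in the next high array, and the dimmer at 4.09 in low 6 against 3.54. The FGF7 and dim TCN1 values all lie under the array medians.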

How the results depend on the processing

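Limma called 1885 probe sets, 4 of them among the 11 of the secretory genes. Under filtering, cyclic loess, median subtraction, and trend and robust settings both counts stayed within 1.5 times. The count over all probe sets was 3060 with array weights and 877 with 1 probe set per gene, where fewer were tested, and 1065 without both low 7 and low 9, an alternative chosen after seeing the data. It was 944 to 2650 when 1 array was left out, lowest without high 3, and the secretory count was then 2 to 6. With covariates limma called 2 (epithelium; 1246 at an unadjusted p under 0.05) and 0 (smooth muscle; 269), and 0 secretory probe sets in both.

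Replicate numbers 1 to 5 occur in both classes, but nothing says that they pair sows. Deviations of same-numbered arrays correlated at 0.15, 0.14, -0.066, 0.42 and -0.25, and 1 of 5 high arrays matched its own number best. The replicate block gave 35 calls and 0 secretory ones (5 at an unadjusted p under 0.05). In that fit, low arrays numbered above 5 had no high array to be set against. Its differences therefore rest on the same-numbered arrays alone.

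Differences that changed sign were not called there, and the cause was not tested. ACP5 was at -0.095 with array weights, -0.71 with the epithelium covariate, -0.23 with the replicate block and -0.067 without both low 7 and low 9. The lowest arrays of ACP5, low 7, low 8 and low 9, did not enter the difference of the replicate block. The dim UPTI probe set was at -0.018 with array weights, -0.20 with smooth muscle, -0.031 with the trophoblast covariate (chosen after seeing the data) and between -0.060 (without high 4) and 0.23 when 1 array was left out. LIF was at -0.11 with epithelium. With smooth muscle TCN1 was at -1.68, its dim probe set at -0.68, FGF7 at 0.36, TFPI2 at 0.55, FGFR1 at 0.85, ETV5 at 0.76, ELF3 at -0.75 and FGFR2 at 0.70. FGFR2 was also at 0.021 with array weights, 0.15 with epithelium and between -0.26 and 0.13 (without high 5) when 1 array was left out. Among called genes, UPTI missed the threshold with array weights (1.93, limma adjusted p = 0.068) and without both low 7 and low 9 (2.12, 0.070). GLB1, GLA, STEAP4, CTSK, FGF9, FGFR1, ETV5, JAK2 and PGR also missed it without both low 7 and low 9 (limma adjusted p from 0.068 to 0.12), and GLA (0.065), STEAP4 (0.055), CTSK (0.058) and PGR (0.078) with the trophoblast covariate. Cyclic loess ended the calls of GLA and STEAP4, array weights that of GLA, and median subtraction and trend that of PGR. TCN1 passed it with the filter, array weights, trend and robust settings, 1 probe set per gene or the trophoblast covariate (limma adjusted p from 0.0052 to 0.045).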
